A study of Rattus norvegicus with 12 samples.

Results

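Npc2 and 8 genes that move cholesterol out of lysosomes, between cells and out of neurons were examined in the cortex of young and aged rats. The 9 genes were Npc1, Npc2, Lipa, Abca1, Abcg1, Apoe, Apod, Lrp1 and Cyp46a1. Npc2 was chosen by its higher signal with age on these same arrays, and the other 8 were picked around it for their place in the pathway, so the age difference of Npc2 is given as a description with no test. The members were found as every probe set (a group of short probes that match part of a transcript) whose gene symbol in the array annotation is one of these 9. The rule found 15 of the 31099 probe sets on the array, and these name 8 of the 9 genes. No probe set carries the symbol or gene ID of Npc1, so no value is given for it. The 12 arrays hold cortical RNA from 6 young and 6 aged male Fischer 344 rats, 1 Affymetrix RAE230 2.0 array per rat. The labels give the ages as 3 to 5 months and 21 to 23 months, and the methods give 3 and 21 months. Every rat of both groups carried a wireless implant that recorded sleep, was trained in a water maze and was killed right after its last maze trial, so no group is free of surgery or training. The labels call the tissue parietal cortex in the sample titles and frontal cortex in another field. A probe set was tested if its signal exceeded 19.7, the cutoff that the methods set for expression, on at least 3 arrays, and an adjusted p is one corrected over all genes or probe sets tested. Signals are linear intensities as deposited, differences are aged minus young on the log2 scale, and 6 arrays per age limit how precise they are.

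Cholesterol that enters a cell in lipoproteins reaches the lysosome as an ester. Lipa, lysosomal acid lipase, frees it, the small soluble protein Npc2 picks it up, and the membrane protein Npc1 takes it from Npc2 and passes it out of the lysosome. Loss of Npc1 or Npc2 causes Niemann-Pick disease type C, in which cholesterol and other lipids build up in lysosomes and neurons die. The brain makes nearly all of its own cholesterol. Glia load it onto apolipoprotein E through the transporters Abca1 and Abcg1, neurons take the particles up through receptors such as Lrp1, and neurons dispose of the excess through Cyp46a1, which hydroxylates cholesterol to a form that leaves the brain.

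The promoter of Npc2 is shown because this gene had the clearest age difference of the set, and a short stretch of the Abca1 promoter because it was the only one, among the 8 members with a RefSeq promoter entry, to hold the core of the element that marks many lysosomal genes. Abcg1 had no entry. Both come from RefSeq, build GRCr8, and are printed 5′ to 3′ on the strand of the gene. In Npc2 the stretch is chr6:110149246-110149495 on the minus strand, the 250 bases before the start site. In Abca1 it is chr5:72596605-72596634 on the minus strand, 30 bases within the same window. Capitals mark GC boxes (GGGCGG) and CCAAT boxes (CCAAT) in Npc2 and the core CACGTG in Abca1, on either strand.
Npc2: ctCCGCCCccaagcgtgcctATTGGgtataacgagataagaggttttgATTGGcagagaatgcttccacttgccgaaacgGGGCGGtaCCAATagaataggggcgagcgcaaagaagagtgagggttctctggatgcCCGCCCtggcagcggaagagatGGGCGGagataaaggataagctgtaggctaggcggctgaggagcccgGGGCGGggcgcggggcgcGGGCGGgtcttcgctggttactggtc
Abca1: gggccatagctcCACGTGctttctgctgag
The Npc2 stretch held 6 GC boxes and 3 CCAAT boxes. Among the same 250 bases of 33469 RefSeq promoters, 30.5% held at least 1 GC box, 34.0% at least 1 CCAAT box and 5.59% the core CACGTG. A further motif was an exact direct repeat of AGGTCA spaced by 4 bases, a form that sterol-sensing LXR receptors can bind. It was in no window of these members and in 0.00299% of all windows (1 of 33469). So rare a string was almost certain to be absent here, and looser forms of it were not searched. Of the element that marks lysosomal genes only the core CACGTG was searched, without the bases beside it. All these letters describe the windows and show no binding.

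Npc2, which was chosen by this same contrast, had the clearest age difference of the 8 measured genes. Its signal ran from 1944 to 2593 in the 6 young rats (median 2390) and from 3223 to 3912 in the 6 aged rats (median 3655). Every aged rat lay above every young rat. The group means were 2364 ± 234 and 3646 ± 254 (SD, n = 6 each), a ratio of 1.55 between the log2 means and a log2 difference of 0.63 (standard error 0.078). Of the 13253 genes tested, 0.536% had every aged rat above every young rat, and nothing is read from this share, since the same contrast chose Npc2. The difference was 0.57 in the 7 rats with sample codes of the lower number series and 0.67 in the 5 rats of the higher series. In whole cortex, a change in the number of cells that carry a transcript and a change of its level per cell cannot be told apart. Marker genes of microglia, which are rich in lysosomes, moved in the same direction: 15 of 16 were higher in aged rats and 1 lower. Over all genes tested, 56.9% were higher. The median log2 difference of the markers was 0.31, against 0.02 over all genes tested. Of the markers 0 passed at an adjusted p under 0.05 (limma), and 5 were higher at a p up to 0.05 before adjustment, as were 6.49% of all genes. The mean log2 signal of the microglia list ran from 8.41 to 8.72 in young and from 8.55 to 9.37 in aged rats. Taken as the log2 signal above this list mean in the same rat, Npc2 stood at 2.64 ± 0.11 in young and 2.98 ± 0.27 in aged (SD, n = 6 per age). These values contain the age difference that chose Npc2, so nothing is read from them. The part of microglia in the difference was not tested.

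**Figure D1:**
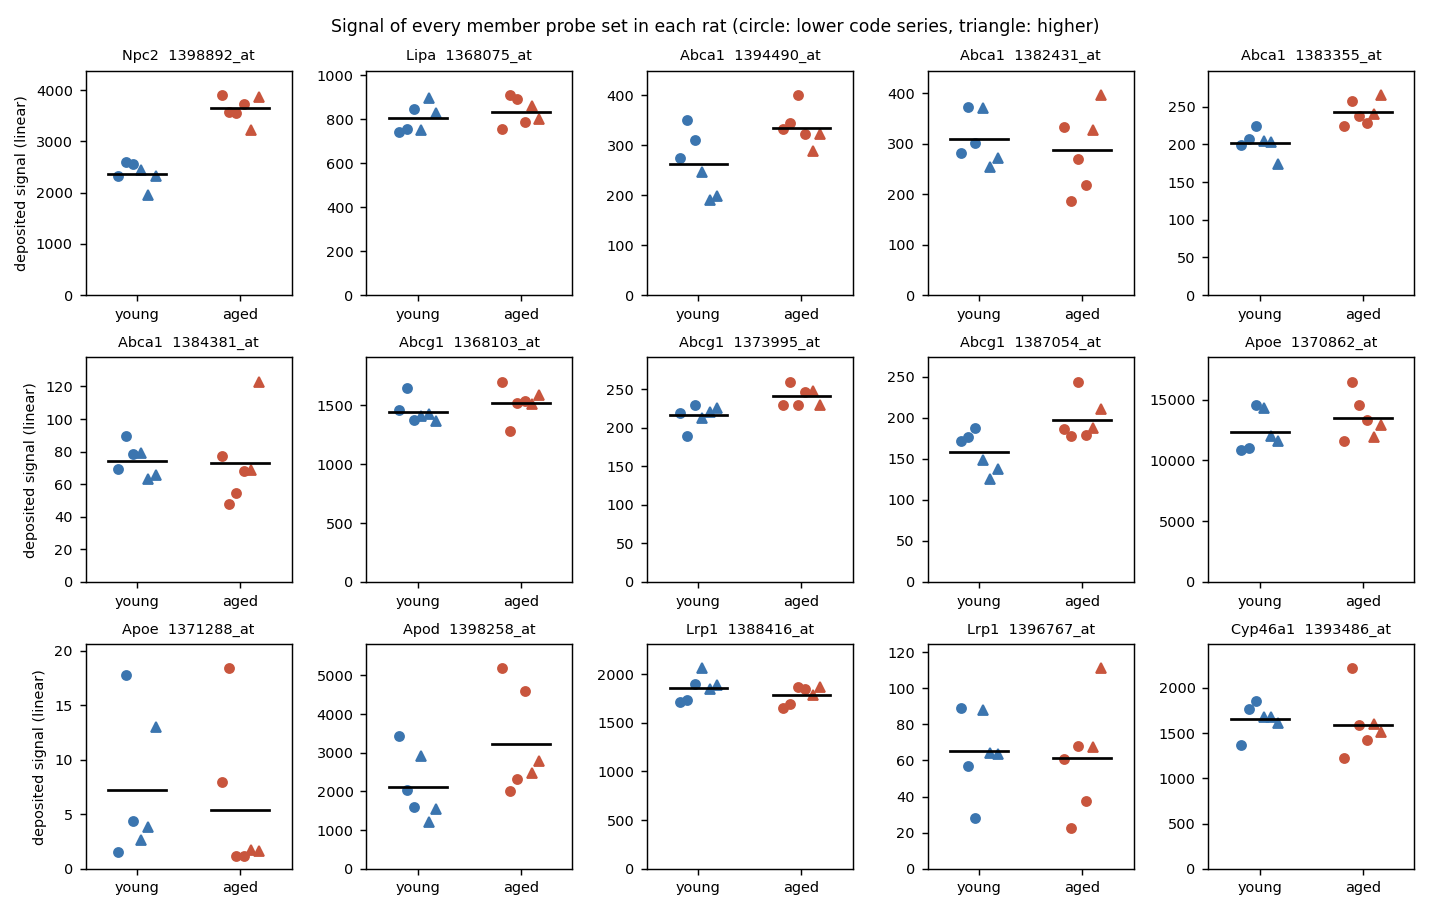
Deposited signal on a linear scale (y axis) of each of the 15 member probe sets in the 6 young and 6 aged rats (x axis), with 1 point per rat, circles for the lower and triangles for the higher sample code series, and a line at each group mean. For Npc2 the aged rats lie between 3223 and 3912, all above the young rats, while for Lipa, Apoe, Lrp1 and Cyp46a1 the groups overlap.

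Lipa, the lipase that acts just before Npc2, differed little between the ages. Its signal ran from 743 to 895 in young rats (median 794) and from 757 to 912 in aged rats (median 831). The groups overlapped over nearly their whole range. The means were 804 ± 62.5 and 835 ± 62.7 (SD, n = 6 each), and the log2 difference of 0.05 (standard error 0.069, adjusted p = 0.866 from limma over all genes) had a 95% interval from -0.10 to 0.21. With each array centred on its median the difference was -0.02.

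Abca1, the transporter that starts the loading of apolipoprotein E, gave different answers from its 4 probe sets. The probe set with the highest mean, 1394490_at, ran from 191 to 350 in young rats (median 261) and from 288 to 401 in aged rats (median 327). The aged rats were in the upper part of the young range, with 1 of 6 above every young rat. Its log2 difference was 0.38 (standard error 0.15, 95% interval 0.06 to 0.71, unadjusted p = 0.0246 and adjusted p = 0.481 from limma). A second probe set, 1383355_at, ran from 174 to 225 in young rats (median 204) and from 224 to 266 in aged rats (median 240). Here 5 of 6 aged rats lay above every young rat. The means were 202 ± 16.6 and 242 ± 16.8 (SD, n = 6 each), a log2 difference of 0.26 (standard error 0.074, unadjusted p = 0.00407 and adjusted p = 0.388 from limma over all probe sets). Over all 12 rats the remaining probe sets did not point the same way. Probe set 1382431_at had means of 308 ± 51.3 and 288 ± 78.7, and 1384381_at had 74.1 ± 9.95 and 73.2 ± 26.4 (SD, n = 6 each), with log2 differences of -0.13 and -0.08. After the age group means were removed, these last probe sets followed each other across the 12 rats (r = 0.83), whereas 1394490_at followed them weakly (r = 0.20 and 0.15). These correlations are descriptions over rats that share their arrays. Which part of the transcript each probe set reads is not given in the sources used here. For 1394490_at the difference was 0.17 within the lower code series and 0.53 within the higher one, and the young rats of the lower series (274, 350 and 310) stood above those of the higher series (247, 191 and 199). For 1383355_at the difference was 0.17 within the lower and 0.39 within the higher series. For 1382431_at and 1384381_at it was -0.36 and -0.37 within the lower series, but 0.29 and 0.41 within the higher one. Within the higher series (3 young and 2 aged rats) all 4 probe sets were thus higher in aged rats.

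Abcg1, which adds cholesterol to particles that are already formed, also differed among its 3 probe sets. The probe set that represents the gene, 1368103_at, ran from 1369 to 1652 in young rats (median 1417) and from 1280 to 1703 in aged rats (median 1528). The groups overlapped. Its log2 difference was 0.07 (standard error 0.074, 95% interval -0.09 to 0.23, adjusted p = 0.831 from limma), and 0.00 with each array centred on its median. Probe set 1373995_at ran from 189 to 229 in young rats (median 220) and from 230 to 260 in aged rats (median 239). The lowest aged rat, at 230, was just above the highest young rat, at 229, so the groups did not overlap. Of all 28193 probe sets tested, 0.429% had such a separation with aged rats higher. Its log2 difference was 0.16 (standard error 0.065, unadjusted p = 0.0322 and adjusted p = 0.596 from limma). Probe set 1387054_at had means of 158 ± 24.5 and 197 ± 25.6 (SD, n = 6 each), a log2 difference of 0.33 (standard error 0.12, unadjusted p = 0.0169 and adjusted p = 0.531 from limma), which was 0.13 within the lower and 0.54 within the higher code series. With age group means removed, 1368103_at and 1373995_at ran against each other across the 12 rats (r = -0.85). Young rat 2 (1652 and 189) and aged rat 2 (1280 and 260) stood at opposite ends of their groups in these probe sets. The value of r without these rats was not computed.

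Apoe, the main lipoprotein of the brain, was bright on every array by 1 probe set and below the cutoff by the other. Probe set 1370862_at ran from 10832 to 14547 in young rats (median 11764) and from 11572 to 16481 in aged rats (median 13143). The groups overlapped, with 1 of 6 aged rats above every young rat. The means were 12370 ± 1656 and 13468 ± 1813 (SD, n = 6 each), a log2 difference of 0.12 (standard error 0.11, 95% interval -0.11 to 0.36, adjusted p = 0.771 from limma). The difference was 0.21 within the lower code series and -0.02 within the higher one. Probe set 1371288_at stayed at or below 18.4 in all 12 rats, under the cutoff of 19.7, and was not tested.

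Apod, a lipid-binding protein that glia secrete, had an average difference close to that of Npc2 but a wide spread within each age. Its signal ran from 1210 to 3432 in young rats (median 1813) and from 1999 to 5181 in aged rats (median 2636). Of the 6 aged rats, 2 lay above every young rat. The means were 2118 ± 872 and 3229 ± 1325 (SD, n = 6 each), a ratio of 1.53 between the log2 means and a log2 difference of 0.61 (standard error 0.31, 95% interval -0.06 to 1.28, adjusted p = 0.576 from limma). The difference was 0.54 within the lower and 0.59 within the higher code series. The SD of log2 signal within an age was 0.58 in young and 0.56 in aged rats for Apod, against 0.15 and 0.10 for Npc2.

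The level of Apod in a rat followed transcripts of oligodendrocytes, the cells that form myelin, on the same array. Against a list of 12 oligodendrocyte genes, among them Mbp, a main protein of myelin, and Mog, a protein of its outer surface, Apod had r = 0.95 over the 12 rats once age group means were removed (permutation of rats within ages, two-sided p = 3.00e-05, adjusted p = 1.20e-04 over 4 lists) and Spearman's rho = 0.94 (permutation p = 1.80e-04). It was r = 0.96 among the 6 young rats (exact permutation p = 0.00417) and r = 0.96 among the 6 aged rats (exact permutation p = 0.00278), 0.97 in the lower and 0.92 in the higher code series, and 0.91 without the 2 rats farthest from the median of the list (permutation p = 4.00e-04). The list itself holds no member. Its mean log2 signal was highest in aged rats 1 and 4, at 11.71 and 11.62, where Apod stood at 5181 and 4602, and among young rats in rats 1 and 4, at 11.38 and 11.14, where Apod stood at 3432 and 2907. With the microglia, astrocyte and neuron lists r was 0.02, 0.30 and 0.44 (adjusted p = 0.949, 0.489 and 0.347 from permutation). All 12 oligodendrocyte genes were higher in aged rats (median log2 difference 0.24), but 0 passed at an adjusted p under 0.05 (limma) and 0 had an unadjusted p up to 0.05. Over all genes tested, 56.9% were higher, with a median of 0.02, and 6.49% were higher at that unadjusted p. Relative to the list mean in the same rat, Apod stood at 0.06 ± 0.28 in young and 0.39 ± 0.18 in aged (log2, SD, n = 6 per age), a difference of 0.33 (exact permutation, two-sided p = 0.0411, adjusted p = 0.0617 over 3 such comparisons). The other comparisons of this kind set Abca1 against the astrocyte list (0.33, exact permutation, adjusted p = 0.0617) and the microglia list (0.10, exact permutation, adjusted p = 0.600). These relations of Apod and Abca1 to cell lists were chosen after the data had been seen.

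Lrp1, a receptor that takes up apolipoprotein E particles, and Cyp46a1, the neuronal enzyme that removes cholesterol, had slightly lower means in aged rats without passing the test. Probe set 1388416_at of Lrp1 ran from 1717 to 2058 in young rats (median 1866) and from 1654 to 1869 in aged rats (median 1813), a log2 difference of -0.06 (standard error 0.059, 95% interval -0.18 to 0.07, adjusted p = 0.833 from limma). The dimmer Lrp1 probe set 1396767_at varied more, from 28.1 to 88.9 in young and from 22.7 to 111 in aged rats. Cyp46a1 ran from 1371 to 1851 in young rats (median 1682) and from 1222 to 2216 in aged rats (median 1547), a log2 difference of -0.08 (standard error 0.13, 95% interval -0.35 to 0.20, adjusted p = 0.899 from limma). For both genes the groups overlapped. In Cyp46a1 the highest and the lowest of all 12 rats were both aged. Neuronal markers on the same arrays were lower in 13 of 15 genes, with a median of -0.09 and 0 past an adjusted p under 0.05 (limma), while 2 of the lower ones had p up to 0.05 before adjustment. Over all genes tested, 5708 of 13253 were lower, with a median of 0.02. The mean log2 signal of the neuronal list ran from 12.17 to 12.36 in young and from 12.09 to 12.16 in aged rats. The groups were only just apart, at 12.17 in the lowest young and 12.16 in the highest aged rat. Young rat 4 stood at 12.36, and the other young rats lay between 12.17 and 12.20. The part of neurons in these differences was not tested.

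Of the 7 other measured genes, 0 passed at an adjusted p under 0.05 with limma, where 0.0528% of all genes tested did so in either direction and 0.0453% were higher in aged rats. At an unadjusted p up to 0.05 the count was 1 (Abca1, higher), against 9.11% of all genes, 6.49% higher and 2.62% lower. Abca1 is counted by 1394490_at, with means of 262 in young and 335 in aged rats. By 1382431_at, with means of 308 and 288, its difference was -0.13 (unadjusted p = 0.504 from limma over all probe sets). With the probe sets of each gene averaged, Abca1 stood at 0.11 (adjusted p = 0.831 from limma). The difference was above 0 for 5 of the 7, against 56.9% of all genes. By probe set, 14 of 15 exceeded the cutoff on at least 3 arrays. Of the 13 that do not read Npc2, 8 were higher in aged rats, 4 had an unadjusted p up to 0.05 and 0 passed at an adjusted p under 0.05 (limma), against 7.80% and 0.0248% of all probe sets at these thresholds. All 4 were higher in aged rats, as were 5.67% of all probe sets at that p. The 4 read only Abca1 and Abcg1, so they are not independent of one another.

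**Figure D2:**
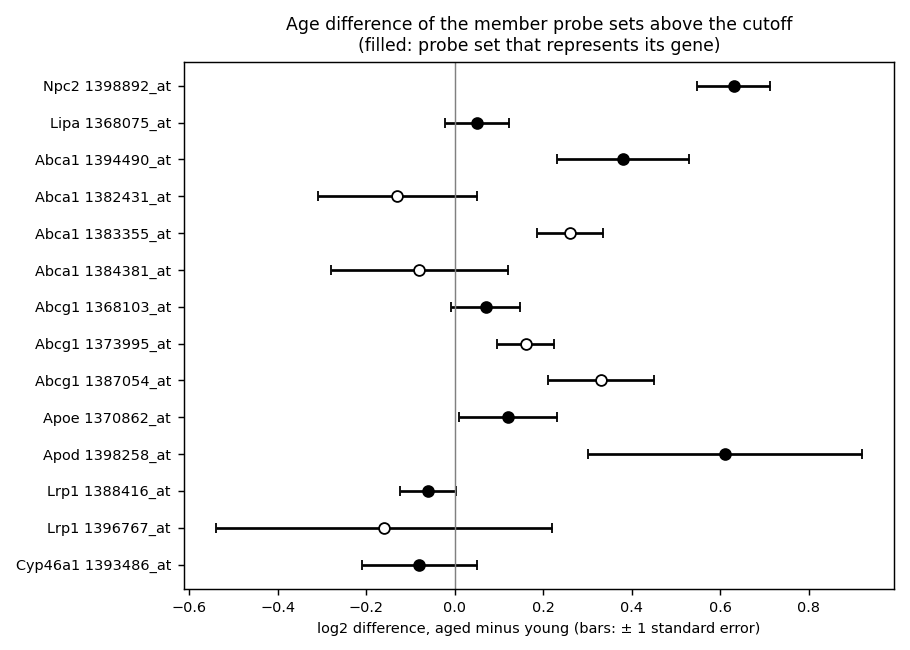
Log2 difference, aged minus young (x axis), of the 14 member probe sets above the cutoff (y axis), with bars of 1 standard error from limma over all probe sets and 6 rats per group; filled points are the probe sets that represent their gene. Npc2 stands at 0.63 with a short bar and Apod at 0.61 with a long one, and the 4 Abca1 probe sets lie on both sides of 0.

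Around the 9 members, 54 of 63 genes of 5 lists for cholesterol handling were tested. Of these 35 were higher and 19 lower in aged rats, with a median of 0.07. Over all genes tested, 56.9% were higher, with a median of 0.02. Of the 46 genes that are not members 0 passed at an adjusted p under 0.05 (limma), while 6 of them were higher, and 2 lower, with p up to 0.05 before adjustment. Of all genes, 6.49% were higher and 2.62% lower at that p, shares that also stand beside the counts of each list below. The genes for turnover and sensing of sterols had a median of 0.18 (0.09 in the lower and 0.19 in the higher code series alone), where 12 of 16 were higher, 4 of these at an unadjusted p up to 0.05, and 0 passed at an adjusted p under 0.05 (limma). Srebf1, a transcription factor for lipid synthesis, had signals of 567 ± 35.8 in young and 728 ± 95.3 in aged (SD, n = 6 per age; adjusted p = 0.258 from limma). Tspo, a sterol-binding protein of the outer mitochondrial membrane that activated glia carry, had 127 ± 26.1 and 209 ± 72.0 (adjusted p = 0.354). Hsd3b7, an enzyme of bile acid synthesis from oxysterols, had 195 ± 13.1 and 223 ± 21.2 (adjusted p = 0.477).

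Among the genes of lysosomal export, 9 of 13 were higher and 4 lower (median 0.05, and -0.02 with each array centred on its median). With Npc2 left out of the count, since this contrast chose it, 0 passed at an adjusted p under 0.05 (limma). Lamp2, a main protein of the lysosomal membrane, had 2216 ± 270 in young and 2872 ± 407 in aged (SD, n = 6 per age; log2 difference 0.37, adjusted p = 0.354). Gramd1b, which carries cholesterol from the plasma membrane to the endoplasmic reticulum, had 661 ± 40.7 and 588 ± 58.3 (-0.17, adjusted p = 0.517). Scarb2, a lysosomal membrane protein, had 221 ± 19.6 and 199 ± 20.9 (-0.15, adjusted p = 0.611). In these 3 genes the groups overlapped.

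In the efflux list 4 of 6 genes were higher and 2 lower (median 0.09), and 0 passed at an adjusted p under 0.05 (limma). At an unadjusted p up to 0.05, 2 were higher, Abca1 (by 1394490_at) and Abca2. At that p 6.49% of all genes were higher and 2.62% lower. Abca2, a lipid transporter abundant in oligodendrocytes, had 834 ± 61.5 in young and 1166 ± 206 in aged (SD, n = 6 per age; log2 difference 0.47, standard error 0.11, adjusted p = 0.219). Abca7 had 255 ± 33.1 and 276 ± 60.4, and Abca5 750 ± 34.4 and 744 ± 79.6. Of 10 lipoprotein genes 6 were higher and 4 lower (median 0.07, but -0.16 in the higher code series alone), and 0 passed at an adjusted p under 0.05 (limma), with 1 lower at p up to 0.05 before adjustment. That gene was Apom, a carrier of lipids on high density lipoprotein, with 24.4 ± 3.94 in young and 13.2 ± 10.9 in aged rats (adjusted p = 0.424 from limma). These values straddle the cutoff, which Apom exceeded in 6 young rats and 1 aged rat, so it was tested only through the young rats. Clu, a lipoprotein of astrocytes, had 8915 ± 1018 and 9304 ± 550. Lipc, hepatic lipase, had 18.8 ± 9.65 and 13.7 ± 5.55. It exceeded the cutoff on 4 young and 0 aged arrays, so it was tested only through the young rats, where it was higher. Of 9 uptake genes 4 were higher and 5 lower (median 0.00), and 0 passed at an adjusted p under 0.05 or an unadjusted p up to 0.05 (limma). The receptors Vldlr and Lrp8 had log2 differences of -0.08 and 0.07, and Mylip, which marks such receptors for breakdown, had -0.18.

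**Figure D3:**
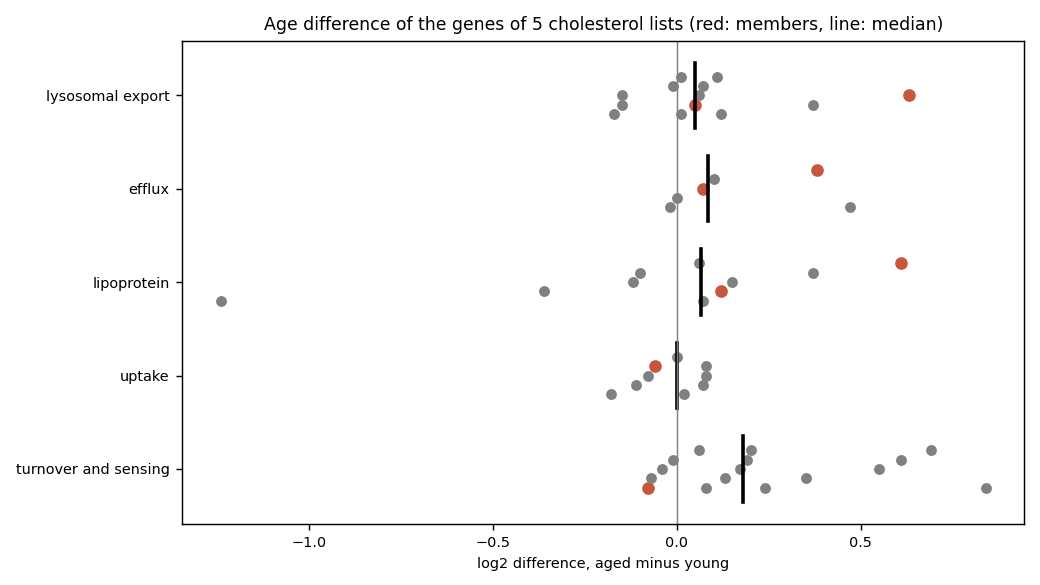
Log2 difference, aged minus young (x axis), of each tested gene in the 5 cholesterol lists (y axis), with 1 point per gene, red for the 8 measured members, and a line at each list's median. Npc2, which was chosen by this same contrast, lies at 0.63, and the medians of the lists lie between 0.00 and 0.18.

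With age group means removed, none of 11 relations between Npc2 and another measure passed after adjustment. The closest were Abca1 with r = 0.68 (permutation of rats within ages, two-sided p = 0.0254, adjusted p = 0.188; Spearman's rho = 0.51, permutation p = 0.117) and Lipa with r = -0.63 (permutation p = 0.0342, adjusted p = 0.188; rho = -0.51, permutation p = 0.117). Without the 2 rats farthest from the median of the other gene, r was 0.40 for Abca1 and -0.45 for Lipa (permutation p = 0.248 and 0.235), of the same sign but smaller and no longer past an unadjusted p of 0.05. With each array centred on its median, r was 0.74 for Abca1 and -0.25 for Lipa (adjusted p = 0.145 and 0.519 from permutation). By age, Abca1 had r = 0.83 in young and 0.25 in aged rats (exact permutation p = 0.0222 and 0.631), and Lipa had -0.61 and -0.68 (exact permutation p = 0.192 and 0.126). In the lower and higher code series r was 0.16 and 0.81 for Abca1 and -0.36 and -0.92 for Lipa. For the remaining members r lay between -0.11 (Cyp46a1) and 0.49 (Apod), and with the microglia, astrocyte, oligodendrocyte and neuron lists it was 0.39, 0.61, 0.44 and 0.00 (adjusted p = 0.297, 0.189, 0.297 and 0.993 from permutation). Spearman's rho with these lists, in the same order, was 0.40, 0.23, 0.60 and -0.23. Over all 13252 other genes, those whose age-centred signal was most like that of Npc2 were Keap1, the sensor of oxidative stress (r = 0.94), Angpt1, a ligand of blood vessel cells (0.93), Plscr1 (0.90), Mindy3 (0.90) and Tmod3, which caps actin filaments (0.87), over 12 rats. They were picked as the highest and carry no test. Angpt1 exceeded the cutoff on 3 arrays and Plscr1 on 8.

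**Figure D4:**
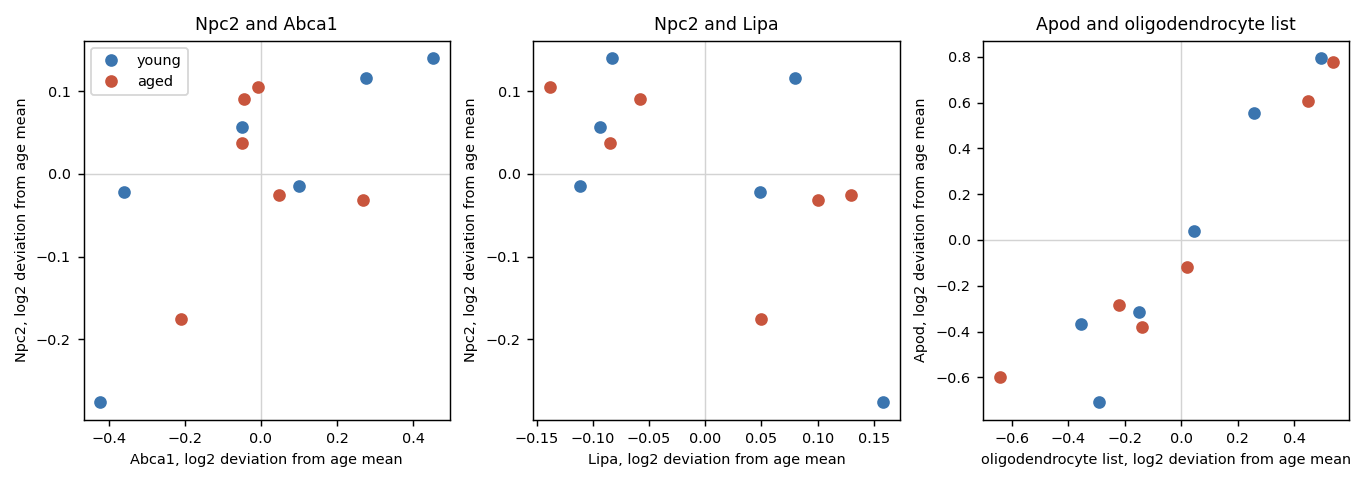
Log2 deviation of each rat from the mean of its age group, for Npc2 against Abca1 (left), Npc2 against Lipa (middle) and Apod against the mean of 12 oligodendrocyte genes (right), with 1 point per rat (6 of each age). The points of the right panel lie close to a line (r = 0.95), while those of the left (0.68) and middle (-0.63) panels scatter.

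Across the series, the trimmed mean signal was 500.1 on each array, and the median ranged from 161.6 to 171.9 in young and from 167.9 to 194.3 in aged rats, highest in aged rat 6, which also had the highest microglia list mean. Blood genes had a median log2 difference of 0.50 (5 of 5 higher), and 5 of 6 aged rats exceeded the highest young rat in their mean. Endothelial and mural genes had 0.21 (10 of 12 higher), astrocyte genes 0.04, choroid plexus genes 0.10 and meningeal genes -0.10, and 0 genes of these 5 lists passed at an adjusted p under 0.05 (limma), while at p up to 0.05 before adjustment 2 blood genes, 2 vascular genes and 1 meningeal gene were higher and 1 meningeal gene was lower. The 2 blood genes were S100a8 (2.23) and S100a9 (1.60), with the largest differences of their list. S100a8 exceeded the cutoff on 0 young and 6 aged arrays, so it was tested only through the aged rats. Hbb, Alas2 and Slc4a1 had log2 differences of 0.23, 0.50 and 0.41 (unadjusted p = 0.19, 0.0679 and 0.376 from limma). Among defining markers, Aif1, Csf1r and P2ry12 of microglia had 409, 711 and 845 in young and 462, 797 and 1043 in aged rats. For astrocytes, Gfap had 4505 and 5876, Aqp4 5522 and 5457, and Slc1a3 9649 and 9762. Cldn5 of endothelium had 1100 and 1270, and Hbb of red blood cells 6119 and 7112. Ttr of choroid plexus had 365 and 253, and Dcn of meninges 278 and 222. All 7 measured genes of cortical neurons, Neurod6 among them, exceeded the cutoff on every array, as did 6 of 7 striatal, 4 of 6 hippocampal and 8 of 8 thalamic genes, so these lists do not place the tissue, and they cannot separate parietal from frontal cortex. The median differences of these 4 lists, in the same order, were -0.02, -0.12, 0.15 and -0.04, with 0 genes past an adjusted p under 0.05 (limma) and, at an unadjusted p up to 0.05, 1 hippocampal and 2 thalamic genes higher.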

How the data were processed

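Cortical RNA of 6 young and 6 aged rats was measured on 12 Affymetrix arrays. The authors deposited 1 linear signal intensity per probe set and array. Tools listed by the submitters are GCRMA, MAS5 and R 2.7.1. The methods describe gcRMA, which yields log2 values, and scaling to a target intensity, and the order of these steps is not given in the sources used here. Since the deposited intensities are linear, they were put on a log2 scale and not normalized again. The methods' cutoff of 4.3 was applied to these log2 values (a signal of 19.7, at least 3 arrays), although it was set on other values.

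Symbols come from the platform annotation, updated by gene ID through a RefSeq gene table (assembly GRCr8), in which 20764 of the 20832 probe sets with 1 symbol were found. The gene test left out 436 probe sets that carry more than 1 symbol and 9831 without any. Where a gene had several probe sets, the one with the highest mean stood for it. Ages were compared with limma 3.58.1 in R 4.3.3 (lmFit and eBayes, two-sided, Benjamini-Hochberg over 13253 genes, or over 28193 probe sets). Nothing says that rats came from separate litters or dissections, so p-values measure the spread between these rats. Correlations used log2 signals minus age group means, with 100000 permutations of rats within ages, or all 720 orderings within 1 age. Median centring, quantile normalization, other filters, an offset of 32, averaged probe sets, other variance models, array weights, the methods' t-test, blocks and single series of sample codes (7 and 5 arrays) and leaving out each rat were tried. Steps were tested on simulated data. Python 3.11.15 and matplotlib 3.10.9 drew the figures.

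The members, gene lists and tests were chosen with earlier results of these data known. Named are all members, the 3 other genes with the smallest p in each cholesterol list, preset cell markers and the 5 genes most like Npc2. Maze and sleep measures were not used here.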

Additional observations from a re-analysis of the deposited data

Results flagged for a closer look

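Young rat 2 stood apart in Abcg1, and in opposite directions by probe set. By 1368103_at it had a signal of 1652, against 1369 to 1459 in the other 5 young rats. By 1373995_at it had 189, against 213 to 229. In both, the gap to the nearest rat was a large part of the range of the group (0.661 and 0.642), above Dixon's 95% critical ratio for 6 values. Among 30 groups checked (15 probe sets in 2 ages) 2 exceeded it, where chance gives about 1 in 20.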

How the results depend on the processing

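The difference of Npc2 stayed between 0.56 and 0.67 over 25 alternatives and moved by less than 1 SD between rats, and 0 of the 7 other members were called under any of them, each rat left out included. The number of genes called, 7, was 13 with array weights, 18 with an intensity trend and robust variances, 2 with median centring, 4 with quantile normalization, 2 with the subject number as a replicate block, 0 in the lower code series alone (611 at an unadjusted p up to 0.05) and 0 in the higher one (990), and 0 to 8 with single rats left out: 0 without young rat 1 (1260), 1 when aged rat 3 or 6 was left out, 2 for aged rat 2, and 4 for young rat 2 or aged rat 5. The number of pathway genes called includes Npc2, which was picked on this contrast, so nothing is read from it. It was 1 as reported, 0 with median centring, with the replicate block and in either code series alone, and 0 to 1 with single rats left out (0 without young rat 1 or aged rat 2, 3 or 6). With quantile normalization 4 probe sets were called in place of 7. The subject numbers were not treated as pairs, since the labels tie them to no shared litter or day and, with age means removed, same-numbered rats had correlations from -0.04 to 0.16. That 9 of 12 rats matched their own number best is a hint from the data, not the design. Rats of the same number also shared the code series, except for number 4. The part of the code series in this match was not tested. At an unadjusted p up to 0.05, 71.3% of genes were higher in aged rats (860 and 347 lower), 55.5% with quantile normalization (587 and 470) and 31.8% with median centring (413 and 884).

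The sign of the difference turned for Lipa (-0.02) and Abcg1 (0.00 when rounded) with median centring, and for Apoe in the higher code series (-0.02) and with probe sets averaged (-0.34), where the probe set below the cutoff enters. For Abca1 it turned without aged rat 2 (-0.01), 3 (-0.12) or 4 (-0.06) or young rat 3 (-0.13), because 1382431_at then has the highest mean and represents the gene. With single rats left out, Abca1 ranged from -0.13 to 0.47. Correlations of Npc2 near 0 changed sign: with Apoe -0.14 by rank and -0.01 without the 2 extreme rats, with Lrp1 0.01 with quantile normalization, 0.27 with median centring and 0.03 without extreme rats, with Cyp46a1 0.09 and 0.10 under the last pair, and with the neuron list -0.23 by rank, 0.00 with quantile normalization and -0.44 without extreme rats. The remaining causes were not tested. Signals near the cutoff, as for Apom and Lipc, are the least certain.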
